A study of Rattus norvegicus with 7 samples.

Results

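The genes described here are collagens and extracellular matrix glycoproteins of the cultured fetal rat spinal cord. They were taken from a list of 44 matrix genes, each represented by the probe set that the platform annotation names with that symbol alone, by the brightest one where a gene had several, and kept where the mean signal over the arrays was at least 100. Of the 44 genes, 42 were measured in this way, out of 14217 genes with a probe set of 1 symbol and 17709 probe sets tested. Thbs1, a thrombospondin, had no probe set named with its symbol alone and was not measured. Ncan, which encodes the neural proteoglycan neurocan, had a mean signal of 64.1 and is not described further, while the lowest mean among the measured members was 224 (Fbln5).

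Cultures were made from the spinal cords of day 15 Sprague-Dawley rat fetuses, freed of their meninges and sensory ganglia and dispersed with trypsin, and were kept in medium with horse serum on flexible wells coated with type IV collagen. From 3 days after seeding, the cells received cyclic tensile stress at 0.5 Hz with a strain of 10%, which in this device is highest at the edge of the well and falls toward its centre. The 7 groups were 0 hr (no load) and, under stress, 2 and 6 hr, then 12 and 24 hr, then 48 and 72 hr, with 1 array each and the RNA of 5 animals pooled on it. The question was how gene expression changes with the duration of the stress. No unloaded culture of a later time was analysed here, so hours under stress and hours in culture cannot be told apart. In these mixed cultures, fewer cells of a type and less RNA per cell cannot be told apart either.

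Values are MAS5.0 signal intensities, a linear measure of a probe set's brightness after each array was scaled to a common mean. Since no time point was replicated, change was measured as a straight line of log2(signal + 32) against hours, fitted with limma over all 17709 probe sets and called at a Benjamini-Hochberg adjusted p of 0.05. A fitted change is the log2 difference along that line from 0 to 72 hours. Its SE reflects the scatter of the 7 arrays around the line, drawn by limma toward that of probe sets of similar brightness. It does not reflect a scatter between cultures. "Rose" and "fell" are used for genes past this test. A second measure, of size and with no test, was a signal ratio to 0 hours of at least 2 or at most 0.5 where the signals also differed by 200 or more.

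The extracellular matrix is built from collagen fibrils, elastic fibres and basement membranes, with adhesive glycoproteins and proteoglycans bound to them. In the spinal cord the fibrillar collagens lie mainly in the meninges and around vessels, basement membranes of laminin and type IV collagen line the pial surface and the capillaries, and the tissue between neurons is rich in tenascins and in lecticans such as brevican and versican. Matricellular proteins such as tenascin C, thrombospondins and periostin are secreted into the matrix and modulate how cells attach to it.

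Promoter sequences of 250 bases before to 50 bases after the start of transcription were found for 31 of the 44 listed genes in RefSeq on the GRCr8 assembly. The sequences below show the stretches that lie upstream of 3 genes that rose (Col4a1, Col4a2 and Lamc1) and 1 that fell (Col15a1), all of the basement membrane. Col4a1 and Col4a2 start 77 bases apart on opposite strands, so that they share the stretch between them, printed once on the strand of Col4a1. Capitals mark the GC box, GGGCGG on either strand.
Col4a1 and Col4a2, between the starts, GRCr8 chr16:84885521-84885596, plus strand: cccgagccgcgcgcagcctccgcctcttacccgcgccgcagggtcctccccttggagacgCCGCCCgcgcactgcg
Lamc1, upstream, GRCr8 chr13:68051987-68052236, minus strand: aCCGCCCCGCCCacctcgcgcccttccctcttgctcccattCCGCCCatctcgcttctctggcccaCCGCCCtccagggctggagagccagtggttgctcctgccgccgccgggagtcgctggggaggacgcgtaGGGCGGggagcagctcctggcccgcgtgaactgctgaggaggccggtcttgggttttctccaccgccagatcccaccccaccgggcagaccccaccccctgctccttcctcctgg
Col15a1, upstream, GRCr8 chr5:66297296-66297545, plus strand: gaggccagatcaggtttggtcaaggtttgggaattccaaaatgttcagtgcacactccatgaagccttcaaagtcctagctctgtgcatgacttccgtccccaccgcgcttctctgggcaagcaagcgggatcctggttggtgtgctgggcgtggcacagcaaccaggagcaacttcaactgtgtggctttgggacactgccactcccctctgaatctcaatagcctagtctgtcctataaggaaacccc

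The shared stretch of Col4a1 and Col4a2 held 1 GC box and was 78.9% G and C, the Lamc1 stretch held 5 (2 of them overlapping by 1 base) at 71.2%, and the Col15a1 stretch held none at 54.0%. The median over the upstream stretches of all genes was 52% G and C. Motifs were searched on both strands of the 250 bases before the start only. A GC box was present in 20 of 31 members (64.5%) and in 32.4% of 27457 genes with a promoter sequence. It was present in 4 of 4 members that rose and 3 of 7 that fell among those with a sequence. The 4 include Col4a1 and Col4a2, which share the box in the stretch between them and are not separate cases. The part of base composition in these shares was not tested. CCAAT was found in 10 of the 31 members (32.3%) against 34.3% of all, TATAAA in 5 (16.1%) against 13.1%, the AP-1 sequence TGANTCA in 1 (3.23%) against 6.36%, and the TEAD sequence GGAATG in 5 (16.1%) against 11.8%. These are matches of letters in short windows and are given as a description.

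Across the 42 measured genes, 7 rose with hours and 11 fell, and 24 did not pass the test. The share that rose was 16.7%, beside 15.0% of all probe sets tested, and the share that fell was 26.2%, beside 14.1%. Among the 5140 brighter probe sets (mean signal 1000 or more), where 33 of the members lie, 15.2% rose and 17.8% fell. The median log2 change of the members at 72 hours was -0.17 and that of all probe sets tested was 0.00. At 72 hours 3 members were higher past the ratio threshold (Tnc, Thbs2 and Fbln5), where 4.50% of all probe sets were, and 5 were lower (Fbln1, Tgfbi, Eln, Bcan and Col15a1), where 6.16% were. The highest signal of a member exceeded its lowest by less than 1.5 times in 17 of the 42 genes and by more than 2 times in 10. The residual SD around the line had a median of 0.17 over the members and 0.18 over all probe sets tested.

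**Figure D1:**
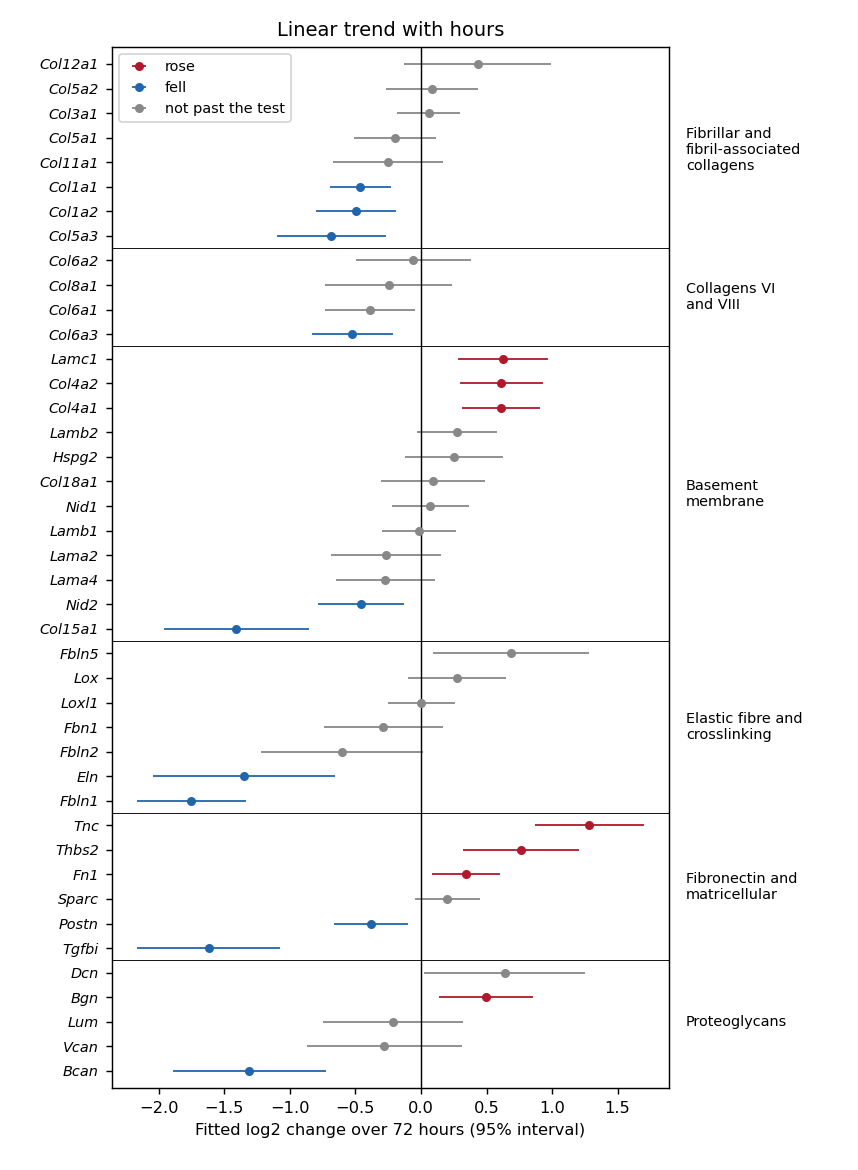
Fitted log2 change over 72 hours of each measured member (points) with its 95% interval (bars), grouped by role, with genes that rose in red, that fell in blue and the rest in grey. The 7 genes that rose lie between 0.34 (Fn1) and 1.28 (Tnc), and the 11 that fell between -0.38 (Postn) and -1.75 (Fbln1), and since the intervals are not adjusted for the number of probe sets, those of Col6a1, Dcn and Fbln5 exclude 0 without passing the test.

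Type I collagen fell and the other major fibrillar collagens did not pass the test. Of the 8 genes of fibrillar and fibril-associated collagens 0 rose and 3 fell (37.5%), beside 15.0% and 14.1% of all probe sets tested. Their median log2 change at 72 hours was -0.39. Col1a1, the alpha-1 chain of type I collagen, had signals of 17373, 16019, 16763, 17442, 16855, 13771 and 12453, in the order of the hours, as all signals below are given. The first 5 arrays lay close together and the 48 and 72 hour arrays were the lowest, for a fitted change of -0.46 (SE 0.11, adjusted p = 0.0103). Its partner chain Col1a2 went the same way, from 16985 through 15594, 14587, 17636 and 16074 to 11874 and 12181, with a fitted change of -0.49 (SE 0.14, adjusted p = 0.0235). A second probe set of each gene fell as well, by 0.98 for Col1a1 (adjusted p = 0.0006) and by 0.74 for Col1a2 (adjusted p = 0.0023) on the log2 scale. The second one of Col1a1 was already lower at 6 hours, with signals of 9030, 8710, 7321, 7060, 7023, 5404 and 4298. Its ratio at 72 hours was 0.476, past the ratio threshold, while that of the brighter probe set was 0.717. Col3a1, the type III collagen that forms fibrils together with type I, had signals of 21329, 19475, 20606, 20678, 20685, 18955 and 22458. Its highest and lowest arrays differed by 1.18 times and its fitted change was 0.06, with a 95% interval of -0.18 to 0.30.

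Col5a3, a chain of type V collagen, which helps to set fibril diameter, had signals of 1006, 1052, 856, 1068, 887, 911 and 555. Only the 72 hour array lay well below the others, and the fitted change was -0.68 (SE 0.19, adjusted p = 0.0220). Without that array the call was lost (adjusted p = 0.584), as it was without the 2 hour array (adjusted p = 0.0582). The remaining 4 genes of the group, Col5a1, Col5a2, Col11a1 and Col12a1, had ratios at 72 hours of 0.786, 0.978, 0.731 and 1.28, with adjusted p from 0.226 to 0.715.

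Type VI collagen, which forms beaded filaments between fibrils and cells, was represented by 3 chains. Col6a3 fell, from 5646 at 0 hours through 4979, 4737, 5826, 4646 and 3930 to 3835 at 72 hours, with a fitted change of -0.52 (SE 0.14, adjusted p = 0.0189). Its second probe set fell by 1.52 (adjusted p = 0.0004), from 609 to 187. Col6a1 had signals of 6655, 5747, 5428, 5707, 5276, 4162 and 5051 and did not pass the test (fitted change -0.39, SE 0.15, adjusted p = 0.0810). Its 0 hour array was the highest and its 48 hour array the lowest. Col6a2 and the short-chain collagen gene Col8a1 had ratios of 0.824 and 0.813 at 72 hours, with adjusted p of 0.857 and 0.430.

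In the basement membrane group, the type IV collagen genes Col4a1 and Col4a2 and the gene of the laminin gamma-1 chain rose, while Col15a1 and Nid2 fell. Of the 12 genes 3 rose (25.0%, beside 15.0% of all probe sets tested), 2 fell (16.7%, near the 14.1% of all) and 7 did not pass the test, and the median log2 change at 72 hours was 0.14. Col4a1 had signals of 4740, 5449, 5399, 6617, 6291, 7272 and 7828. All 6 later arrays were above 0 hours and the 48 and 72 hour arrays were the highest, for a fitted change of 0.61 (SE 0.13, adjusted p = 0.00837). Col4a2, whose chain joins with that of Col4a1 in the type IV collagen of most basement membranes, had signals of 2830, 3030, 3136, 3992, 3556, 4071 and 4666. At 72 hours the ratios to 0 hours of Col4a1 and Col4a2 were both 1.65, and the fitted change of Col4a2 was 0.61 (SE 0.14, adjusted p = 0.0106). These are the head-to-head neighbours whose shared upstream stretch is printed above. The wells were coated with type IV collagen protein, which the arrays do not measure.

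Lamc1 encodes the gamma-1 chain that most laminins contain. Its signals were 3101, 3862, 3678, 4549, 4274, 4434 and 5738, all 6 later ones above 0 hours, with a ratio of 1.85 at 72 hours and a fitted change of 0.63 (SE 0.15, adjusted p = 0.0137). A second probe set of Lamc1 rose by 0.58 (adjusted p = 0.0135), and one of Col4a1 by 0.43 (adjusted p = 0.0308). The other laminin chains measured, Lama2, Lama4, Lamb1 and Lamb2, had ratios at 72 hours of 0.890, 0.807, 1.05 and 1.31, and adjusted p from 0.156 to 0.942. Nid1, a nidogen that links laminin to type IV collagen, had signals of 6209, 7024, 5585, 6429, 6423, 7051 and 6352 and a fitted change of 0.07, with a 95% interval of -0.22 to 0.36. Nid2, its paralog, fell from 1824 through 1722, 1601, 1912, 1861 and 1384 to 1313 (fitted change -0.46, SE 0.15, adjusted p = 0.0419).

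Col15a1 encodes a collagen of the zone beneath basement membranes. It had signals of 839, 845, 1220, 633, 670, 418 and 351, highest at 6 hours and lowest at 72 hours. The fitted change was -1.41 (SE 0.25, adjusted p = 0.00305) and the ratio at 72 hours 0.419. Its second probe set had the same order of the highest and the lowest array, at 452 and 134, and fell by 1.59 (adjusted p = 0.0018). Col18a1, the related collagen that carries endostatin, and Hspg2, which encodes perlecan, had ratios at 72 hours of 1.24 and 1.17, with adjusted p of 0.733 and 0.284.

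**Figure D2:**
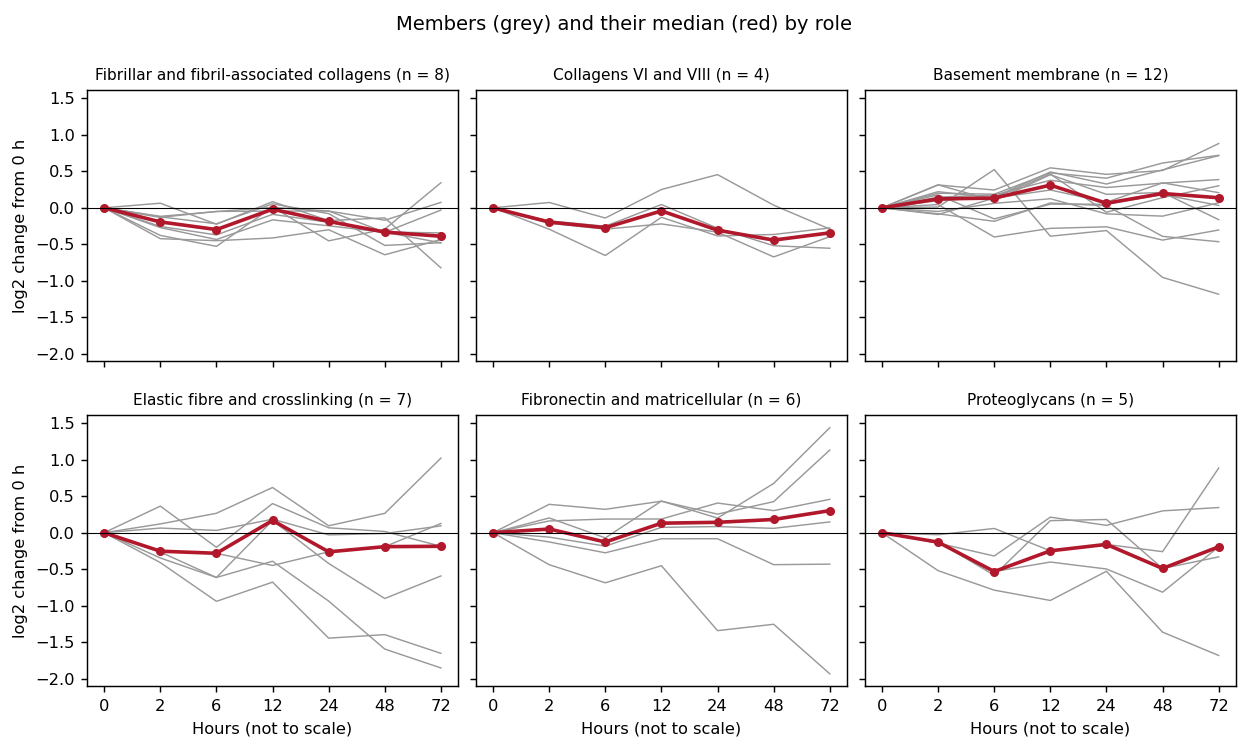
Log2 change from 0 hours of each member (grey lines) and the median of its role group (red line) at each time, with hours spaced evenly and 1 array per point. At 72 hours the medians were -0.39 for fibrillar collagens, -0.34 for collagens VI and VIII, 0.14 for the basement membrane, -0.19 for elastic fibres, 0.30 for matricellular genes and -0.19 for proteoglycans.

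Elastin and fibulin-1 fell to less than a ratio of 0.3, while the genes of lysyl oxidases, which crosslink collagen and elastin, moved little. Of the 7 genes of elastic fibres and crosslinking 0 rose and 2 fell (28.6%), beside 15.0% and 14.1% of all probe sets tested. Fbln1, a glycoprotein gene of elastic fibres and basement membranes, had signals of 2964, 2325, 1927, 2253, 1534, 960 and 797. Each array from 24 hours on was below all earlier ones, and the fitted change of -1.75 (SE 0.19, adjusted p = 0.000353) was the largest fall among the members. Eln, the elastin gene, had signals of 714, 530, 357, 434, 242, 251 and 205. All 6 later arrays were below 0 hours, most of the difference was present by 24 hours, and the fitted change was -1.35 (SE 0.31, adjusted p = 0.0104).

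Fbln5, whose product helps to assemble elastin onto microfibrils, had signals of 164, 181, 204, 270, 178, 204 and 367. It was past the ratio threshold at 72 hours (2.23), where the difference from 0 hours was just over 200, but not past the trend test (fitted change 0.69, SE 0.27, adjusted p = 0.0786). Lox had signals of 3843, 3219, 3155, 2806, 3199, 3362 and 4198, lowest at 12 hours and highest at 72 hours, with a fitted change of 0.27 and a 95% interval of -0.10 to 0.65. Loxl1 stayed between 3854 and 4478, at 3935, 4114, 4024, 4478, 3854, 3906 and 4200, and its fitted change was 0.00 with a 95% interval of -0.25 to 0.26. Fbln2 and Fbn1, the gene of the microfibril protein fibrillin-1, had ratios at 72 hours of 0.650 and 0.877, with adjusted p of 0.129 and 0.326.

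Among fibronectin and the matricellular glycoproteins, Tnc, Thbs2 and Fn1 rose, Tgfbi and Postn fell, and Sparc did not pass the test. The median log2 change of the 6 genes at 72 hours was 0.30. Tnc, the gene of tenascin C, had signals of 2342, 2699, 2228, 3175, 2696, 3760 and 6406. The 48 and 72 hour arrays were the highest, with ratios of 1.61 and 2.74, and the fitted change of 1.28 (SE 0.19, adjusted p = 0.00139) was the largest rise among the members. Thbs2, a thrombospondin that affects collagen fibril assembly, had signals of 846, 1118, 1065, 1153, 1016, 1148 and 1895. The 5 arrays from 2 to 48 hours lay close together and the 72 hour array stood above them, for a fitted change of 0.76 (SE 0.20, adjusted p = 0.0172). Fn1, the fibronectin gene, had signals of 9303, 10408, 10597, 10603, 12343, 11484 and 12788, with a fitted change of 0.34 (SE 0.12) at an adjusted p of 0.0496, next to the threshold.

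Tgfbi, a gene induced by TGF-beta whose product binds collagens and integrins, had signals of 3750, 2759, 2318, 2733, 1460, 1553 and 958. The 24, 48 and 72 hour arrays were below those up to 12 hours, the ratio at 72 hours was 0.255 and the fitted change -1.62 (SE 0.25, adjusted p = 0.00164). Postn, the periostin gene, had signals of 10742, 9835, 8870, 10139, 10143, 7922 and 7960 and a fitted change of -0.38 (SE 0.13, adjusted p = 0.0452). Sparc, which binds collagen and calcium, had signals of 12275, 11772, 10805, 12915, 13017, 12797 and 13603 and a fitted change of 0.20, with a 95% interval of -0.05 to 0.45.

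Among the proteoglycans, brevican fell, biglycan rose and decorin was high on the last array only. Bcan, which encodes the brain lectican brevican, had signals of 923, 634, 521, 470, 630, 339 and 266. All 6 later arrays were below 0 hours and the fitted change was -1.31 (SE 0.26, adjusted p = 0.00555). Bgn, the gene of the small leucine-rich proteoglycan biglycan, had signals of 4735, 4284, 3789, 5495, 5081, 5835 and 6023 and a fitted change of 0.50 (SE 0.16, adjusted p = 0.0411). Dcn, which encodes decorin of the same family, had signals of 5967, 5854, 6216, 5019, 5338, 4979 and 11059. The first 6 arrays lay between 4979 and 6216 and the 72 hour array was 2.22 times the 48 hour one, and the trend test was not passed (fitted change 0.64, SE 0.28, adjusted p = 0.109). Lum, the lumican gene, had signals of 7773, 7106, 5366, 5875, 5498, 4404 and 6795, lowest at 48 hours, with an adjusted p of 0.540. Vcan, the versican gene, had a ratio of 0.790 at 72 hours and an adjusted p of 0.464 for its brightest probe set. Of its 3 other tested probe sets 1 fell (fitted change -0.67, adjusted p = 0.0488, ratio 0.604). The rest, with ratios of 0.867 and 1.16, did not pass the test.

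**Figure D3:**
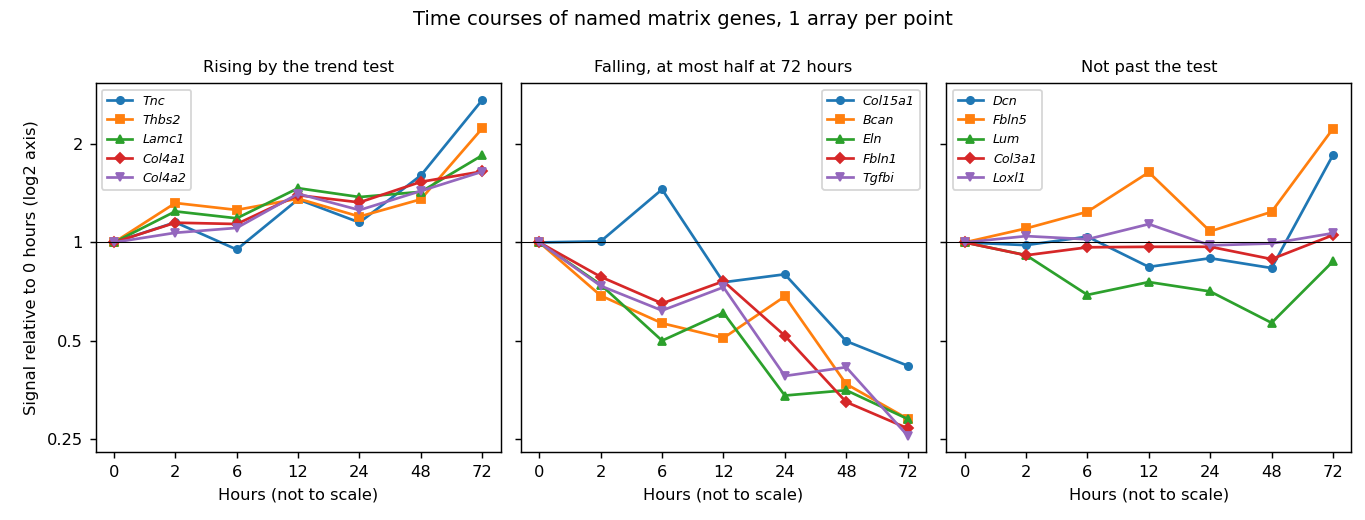
Signal relative to 0 hours on a log2 axis at each time, 1 array per point and hours spaced evenly, for 5 genes that rose, the 5 genes lower past the ratio threshold at 72 hours, and 5 genes not past the trend test. Tnc reached 2.74 and Tgfbi 0.255 at 72 hours, and Dcn went from 0.834 at 48 hours to 1.85 at 72 hours.

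Many calls turned on the last arrays. Without the 72 hour array, the count of members that rose went from 7 to 1, leaving Col4a1 (adjusted p = 0.0483). Of all probe sets tested, 7.43% rose and 7.21% fell without this array, beside 15.0% and 14.1% with all 7. Among the lost rises, the adjusted p was then 0.0600 for Tnc, 0.0901 for Col4a2, 0.190 for Lamc1 and 0.514 for Thbs2. The count that fell went from 11 to 6 without this array, namely Col15a1, Fbln1, Eln and Tgfbi and, newly past the test, Col6a1 and Lum. Among the lost falls, the adjusted p was then 0.0685 for Bcan, 0.0928 for Col6a3, 0.112 for Col1a2 and 0.169 for Col1a1. Without the 48 hour array 7 fell, with Col1a2 (adjusted p = 0.0818) and Col6a3 (adjusted p = 0.0650) among those lost. The share of all probe sets tested that fell was then 9.06%. Fn1, Bgn, Nid2 and Postn, with adjusted p between 0.0411 and 0.0496, lost their calls under 10, 11, 9 and 11 of 17 other settings, while Col4a1, Col15a1, Fbln1 and Tgfbi stayed past the test under each of the 17. Dcn passed when the 48 hour array was left out (adjusted p = 0.0210), and without the 72 hour array its fitted change was -0.27. From 48 to 72 hours 27 of the 42 members (64.3%) went up, beside 53.2% of all probe sets tested, among them Fbln5 by 1.80 times, Tnc by 1.70, Thbs2 by 1.65, Col12a1 by 1.57 and Lum by 1.54.

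The 6 hour array was low for many matrix genes, a pattern noticed after the values were seen and given with no test. In 38 of the 42 members (90.5%) the signal was higher at 12 than at 6 hours, beside 53.9% of all probe sets tested and 49.2% of the brighter ones. A high 12 hour array would add to this count as well. At 12 hours 11 members were at their highest, and at 6 hours 10 were at their lowest. The median log2 change from 0 hours was -0.19 at 6 hours and 0.06 at 12 hours. In 16 members (38.1%) the 6 hour signal was at least 1.1 times lower than at both 2 and 12 hours, beside 18.4% of all probe sets tested and 11.4% of the brighter ones. The 16 genes came from each role: Col5a2, Col5a3, Col12a1, Col6a2, Col8a1, Lama2, Nid1, Fbln1, Fbln2, Fbn1, Eln, Postn, Tnc, Tgfbi, Bgn and Vcan. Vcan went from 1211 at 2 hours to 873 at 6 hours and 1488 at 12 hours, Fbln2 from 660 to 511 and 902, and Fbn1 from 2763 to 1858 and 2832. Col15a1, at its highest at 6 hours, went the other way. With quantile normalization 20 members met this rule, beside 16.5% of all probe sets tested, and with a common median 15 did, beside 16.7%. The summed signal of 7 astrocyte and radial glia markers was also low at 6 hours. It was 34617 at 2, 21427 at 6 and 34178 at 12 hours. Sums of cell cycle genes (6769, 4957 and 5660) and Schwann cell markers (3471, 2747 and 3142) were lower at 6 hours too. Fibroblast and meningeal markers differed less (21961, 20655 and 22658). Microglia and skeletal muscle sums were higher at 6 hours than at 2 and 12 hours, and those of the other marker lists lay between. The part of these markers in the pattern was not tested.

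**Figure D4:**
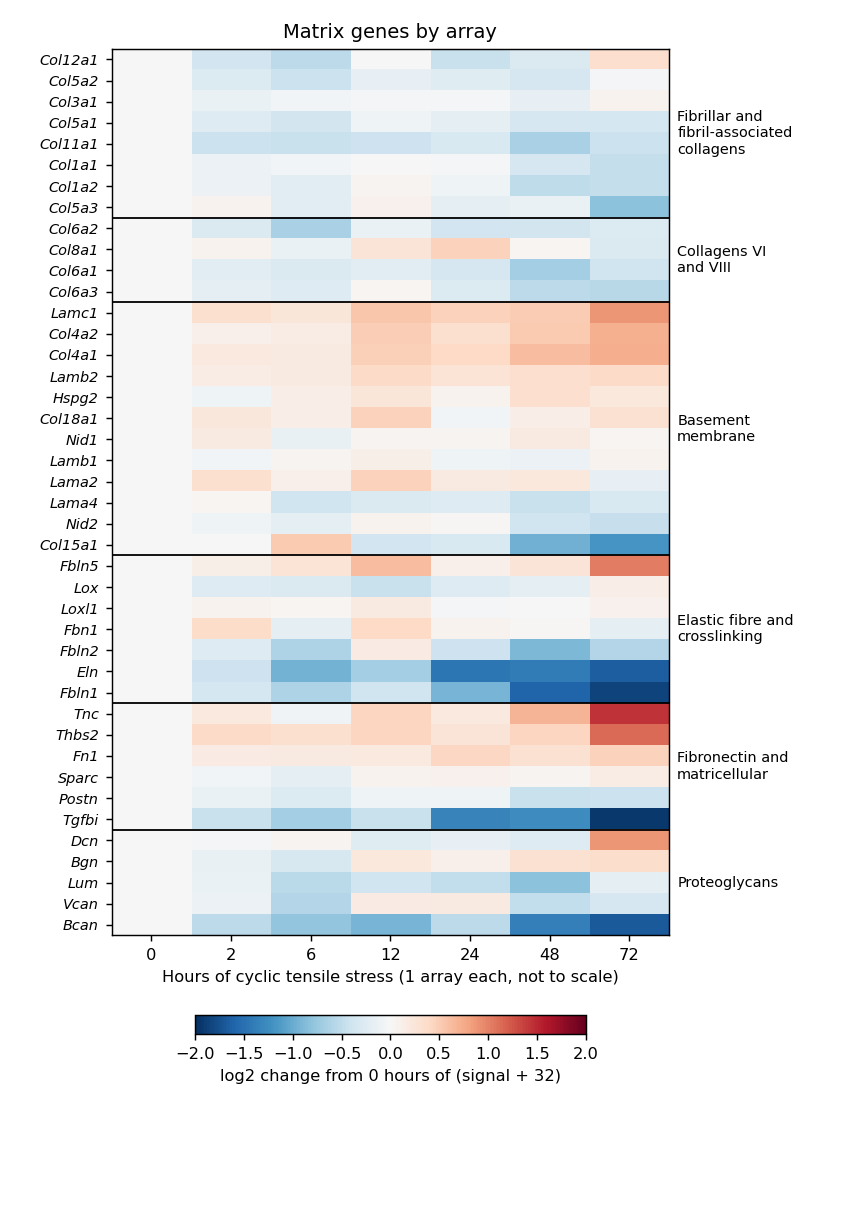
Log2 change from 0 hours of the signal plus 32 for each measured member (rows, grouped by role and ordered by fitted change) on each array (columns), red above and blue below 0 hours. The 6 hour value lies below the 12 hour one in 38 of 42 rows, and the 4 darkest cells are at 72 hours, for Tgfbi, Fbln1, Bcan and Eln.

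Other genes of matrix production and turnover were counted from lists of their own, to be read beside the 15.0% of all probe sets tested that rose and the 14.1% that fell. Of 16 collagen biosynthesis enzymes and chaperones 1 rose (6.25%) and 3 fell (18.8%). Plod2, which hydroxylates the lysines used for crosslinks, rose from 1259 to 3332 (ratio 2.65, fitted change 1.63, adjusted p = 0.000423). Serpinh1, the collagen chaperone HSP47, fell from 8672 to 5125 (fitted change -0.71, adjusted p = 0.00406), and Ppib and Fkbp10, prolyl isomerases of the collagen-folding machinery, fell to ratios of 0.678 and 0.673.

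Of 21 matrix receptors 4 rose (19.0%) and 3 fell (14.3%). Itga6, an integrin chain that binds laminin, fell to a ratio of 0.384 and the heparan sulfate proteoglycan Sdc1 to 0.448, while Itgb3, a chain of integrins that bind fibronectin and vitronectin, rose to 2.12 and the collagen receptor Ddr1 to 2.01. Of 20 matrix proteases and inhibitors 6 rose (30.0%) and 7 fell (35.0%). The gelatinases went opposite ways, Mmp9 from 11300 to 1088 and Mmp2 from 6397 to 17659, while stromelysin-1 (Mmp3) rose from 179 to 1458 and the plasminogen activator Plau fell from 7244 to 1728.

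Of 16 genes of TGF-beta and CCN signals 5 rose (31.2%) and 2 fell (12.5%). Ltbp2 and Smad7 reached ratios of 3.33 and 2.30, and Ltbp4 and the receptor Tgfbr1 fell to 0.481 and 0.524. Of 44 other matrix genes 7 rose and 7 fell (15.9% each), shares near those of all probe sets. Among them the microfibril gene Fbn2 fell from 658 to 199 and the leucine-rich proteoglycan gene Ogn from 3368 to 1366, and Srpx2 rose from 871 to 2484 and the laminin chain Lama5 from 237 to 641. A further type IV collagen gene of this list, Col4a5, rose to a ratio of 1.77 (fitted change 0.88, adjusted p = 0.00348). Col4a4 and Col4a6 had mean signals below 100.

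The cultures, which the study describes as neuron-rich, also held markers of other cells, some of which moved over the same hours, and their part in the matrix results was not tested. For the counts below, 15.0% of all probe sets tested rose and 14.1% fell. At 72 hours 6.16% of them were lower past the ratio threshold. Of 10 fibroblast and meningeal markers 1 rose (Twist2, from 163 to 791) and 2 fell (Aldh1a2, from 1364 to 416, and Slc13a3, from 167 to 49.1), their summed signal ranging from 20100 to 24163 over the arrays. The meningeal marker Tbx18 had a mean signal below 100. The summed signal of 11 neuronal markers went from 19367 at 0 hours to 6003 at 72 hours, with 10 of the 11 lower past the ratio threshold at 72 hours and 3 past the trend test. That of 7 microglia and macrophage markers went from 35211 to 18477, with 5 that fell and 4 lower past the ratio threshold. All 8 cell cycle genes fell, their summed signal going from 8029 to 1489. Of 5 smooth muscle and pericyte markers 1 rose and 1 fell, of 4 endothelial markers 1 rose, of 7 astrocyte and radial glia markers 1 fell, and none of 4 Schwann cell markers or 1 cartilage marker passed the test. The summed signal of 7 skeletal muscle markers went from 11199 to 2301, with all 7 lower past the ratio threshold at 72 hours and 1 past the trend test. The endothelial genes Pecam1, Kdr and Tek and the cartilage genes Col2a1 and Acan had mean signals below 100.

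The arrays had the same scale, with trimmed means of 500.144 to 500.162 and 42.5% to 44.3% of probe sets below 100. The ratio of the 3′ to the 5′ probe set of β-actin, a sign of RNA length, was 1.82 at 0 hours and climbed at every step from 1.53 at 2 hours through 1.83, 1.95, 2.20 and 2.54 to 2.62 at 72 hours, along the same hours as the fitted line. That of Gapdh lay between 1.09 and 1.17. The part of RNA length in the trends was not tested. A further probe set was tested in 17 of the 42 genes, giving 19 pairs with the first, of which 15 had the same sign of the fitted change and 18 the same call, the exception being in Vcan.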

How the data were processed

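Of 44 matrix genes, 42 were measured on 7 arrays, 1 per time point, with RNA of 5 animals pooled on each. The deposited values are linear signal intensity values per probe set, which the authors calculated by MAS5.0 in GCOS, with background subtraction and global scaling of each Affymetrix Rat Genome 230 2.0 array. Such scaling makes a change relative to the whole array, and low signals are uncertain. No detection calls were used here. Of 31099 rows, 57 control probe sets were left out. Probe sets were named by the platform annotation, and 20826 had 1 symbol.

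For each of 17709 probe sets whose signal averaged 100 or more, log2(signal + 32) was regressed on hours with limma 3.58.1 in R 4.3.3 (lmFit, then eBayes with trend set). The residual degrees of freedom were 5, and limma added further ones, estimated from all these probe sets, for the p-values and intervals. P-values were adjusted over all these probe sets by Benjamini-Hochberg, with 0.05 as threshold. The p-values measure scatter around a line over time, which may be technical. The ratio threshold came from the study's methods. Intervals are 95%, and the number of arrays limits the precision. Motifs and figures were computed with Python 3.11.15 (numpy 2.4.6, pandas 2.3.3, matplotlib 3.10.9), and for genes with several promoter entries the first was used. Named genes were all members past the trend test or the ratio threshold, the 2 brightest members of each role, and up to 4 genes past the trend test of each further list that belongs to the matrix, by size of change at 72 hours. Col4a4, Col4a5 and Col4a6 were named in addition, as further type IV collagen genes. The members and all lists were chosen with earlier results of these data known.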

Additional observations from a re-analysis of the deposited data

How the results depend on the processing

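Across 17 other settings of the trend test, 0 of the members' fits reversed a called direction. Of 18 called members, 5 stayed past the test whichever 1 array was left out and 4 under every setting, and 5 of the 24 others passed it under 1 or more settings. The count of members that rose (7) ranged from 1 to 7 with 1 array left out, and was 2 when 48 and 72 hours were set against 0 to 24 hours. The count that fell (11) ranged from 6 to 11 with 1 array left out, and was 6 against log2(hours + 1) and 7 against the rank of the time point. The share of all probe sets that fell was 7.21% to 14.5% with 1 array left out. It was 11.9% against log2(hours + 1) and 13.6% against the rank. Of members higher past the ratio threshold at 72 hours (3), there were 7 at a ratio of 1.5, 0 at a ratio of 3, 1 against the mean of the 0 and 2 hour arrays and 0 with the 48 hour array in place of the 72 hour one. The members lower past it (5) numbered 4 to 7, and the median log2 change at 72 hours (-0.17) lay between -0.23 and -0.10. The cause of these differences was not tested. No paired analysis was possible because each time point has a single array. Arrays with 1 sample per time give no error for a single time point, and signals near or below 100 are limited by background.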
